A study of Mus musculus with 564 samples.

Results

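The response described here was the change in histone H3 lysine 27 acetylation (H3K27ac), which marks promoters and enhancers in use, 4 h after interleukin 4 (IL-4) was given to mouse bone marrow-derived macrophages (BMDMs) that had each received 1 clinical kinase inhibitor (CKI). For every CKI with both measurements, the value after IL-4 was compared with the value of the unstimulated (UT) cells that received the same CKI, on a scale of log2(value + 5), and the CKIs served as the replicates. Of 58 CKIs, 55 had both measurements, which took in 55 IL-4 and 70 UT libraries, or 125 of the 564 libraries of the series. Of these 55 CKIs, 15 had a further UT library, and the log2 values of their 2 UT libraries were averaged. Apatinib, Lenvatinib and Talmapimod had no IL-4 library at 4 h and did not enter.

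All cells were wild type primary macrophages differentiated from the bone marrow of male C57/BL6 mice, and they carried no transgene. The CKI, or the vehicle DMSO, was added 1 h before IL-4 or lipopolysaccharide (LPS, a bacterial ligand of TLR4), both at 10 ng/mL, and each CKI was used at 1 concentration, set for the kinase it was meant to inhibit. The label of the UT libraries names 4 h without a stimulus while their title names time 0. If the title holds, each difference between IL-4 4 h and UT also takes in 4 h more of culture with the CKI or DMSO. The effect of that time and the effect of IL-4 could then not be told apart. Neither the labels nor the methods tell whether the cells of different CKIs came from separate animals or cultures. The spread between CKIs thus holds the differences between compounds, cells and libraries together. The p-values of the main fit set the mean difference against that spread and take the CKIs as independent. That fit held no term for the runs of libraries described below, so its standard errors leave out grouping by run.

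The scaled totals of the 125 libraries lay between 6084230 and 9664690. The reads behind them could be estimated from the spacing of the values in 85 libraries and ranged from 688117 to 5230210, with a median of 1910480. Contrast, the ratio of the median value in the highest 10% of CREs to that in the lowest 10%, lay between 4.61 and 66.0. The libraries stood apart mainly in that measure, which was lowest after IL-4 with Momelotinib, and in the number of CREs at 0, which was 3795 after IL-4 with MK2206 against a median of 116. No pair of the libraries held identical values.

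IL-4 binds a receptor that signals through JAK kinases, which phosphorylate the transcription factor STAT6. STAT6 dimers bind palindromic TTC and GAA sites spaced by a few bases and drive the alternative activation programme of macrophages, which includes arginase, mannose receptor and chitinase-like genes, the transcription factors EGR2, IRF4 and KLF4, and inhibitors of the same pathway such as SOCS1 and CISH. AP-1, made of FOS, JUN and ATF family proteins, binds sites of the type TGANTCA and serves the immediate early and inflammatory genes that TLR4 signalling turns on.

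H3K27ac was read in 59190 windows around the centres of open chromatin, called cis-regulatory elements (CREs), and each CRE is named here by the nearest protein-coding transcription start, which need not be the gene it regulates. Genome positions are in build mm10. The CREs that gained most after IL-4 carried the STAT6-type palindrome, TTC and GAA with any 4 bases between them, which reads the same on both strands, within their central 500 bases in 11 of 12 cases. With the named gains of the IL-4 target and JAK-STAT lists and of the locus that the study assayed by qPCR added, 16 of 22 held it. Those without it lay near Rmi2, Irf4, Pim3, Irs2, Il1rl2 and, 1 further CRE, Socs1, so the stretches below stand only for CREs that hold the palindrome. The 12 leading gains were not 12 separate loci. Those of Ang5, Gm8113, Ang6, Ang2, Rnase2b and Ear14 lay among duplicated ribonuclease genes of chromosome 14. Those of Socs1, Clec16a and Rmi2 were neighbours on chromosome 16. The stretches of 80 bases below are shown with the palindrome in capitals. They come from CREs near negative regulators of the pathway (Socs1, Cish), a JAK family gene (Jak2) and Clec16a, whose intron holds the CRE of the Socs1 stretch. Others come from further named gains (St8sia1, Klf4, Slc1a2, Aifm3) and from the duplicated cluster of secreted ribonuclease genes (Ang6, Rnase2a).
Socs1, chr16:10700367-10700446, plus strand: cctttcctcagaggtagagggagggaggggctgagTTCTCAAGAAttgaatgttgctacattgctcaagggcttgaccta
Clec16a, chr16:10665963-10666042, plus strand: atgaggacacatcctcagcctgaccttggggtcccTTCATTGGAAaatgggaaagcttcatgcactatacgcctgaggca
Cish, chr9:107307276-107307355, plus strand: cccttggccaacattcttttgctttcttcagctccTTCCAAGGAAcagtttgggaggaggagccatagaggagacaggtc
Jak2, chr19:29240474-29240553, plus strand: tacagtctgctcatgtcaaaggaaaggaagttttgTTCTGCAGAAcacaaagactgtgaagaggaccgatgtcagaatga
St8sia1, chr6:142957591-142957670, plus strand: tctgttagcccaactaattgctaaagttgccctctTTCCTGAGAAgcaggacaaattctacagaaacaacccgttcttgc
Klf4, chr4:55567675-55567754, plus strand: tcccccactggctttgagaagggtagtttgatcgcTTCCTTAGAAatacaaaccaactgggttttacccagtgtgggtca
Slc1a2, chr2:102791874-102791953, plus strand: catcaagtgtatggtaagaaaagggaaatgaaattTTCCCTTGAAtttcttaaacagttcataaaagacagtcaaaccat
Aifm3, chr16:17492339-17492418, plus strand: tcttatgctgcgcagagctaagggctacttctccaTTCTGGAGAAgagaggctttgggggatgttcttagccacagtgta
Ang6, chr14:43984277-43984356, plus strand: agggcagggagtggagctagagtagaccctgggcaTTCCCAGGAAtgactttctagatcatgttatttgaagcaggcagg
Rnase2a, chr14:51266456-51266535, plus strand: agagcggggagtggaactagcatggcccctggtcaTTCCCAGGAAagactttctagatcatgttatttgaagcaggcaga

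The palindrome of the Socs1 stretch lay 8 bases from the centre of a CRE in an intron of Clec16a, 85122 bases from the start of Socs1, and that of Aifm3 lay 5 bases from the centre of a CRE inside an intron of Aifm3. The stretches at Ang6 and Rnase2a, from CREs on different parts of chromosome 14, shared 70 of 80 bases. Of the other CREs, those of Clec16a and St8sia1 were intronic in the gene of that name, and those of Cish, Jak2, Klf4, Slc1a2, Ang6 and Rnase2a were intergenic.

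The CREs that lost most carried the AP-1 site TGANTCA, also the same on both strands, in their central 500 bases in 4 of 10 cases. These 4 stretches of 77 bases are shown with the site in capitals.
St3gal5, chr6:72162387-72162463, plus strand: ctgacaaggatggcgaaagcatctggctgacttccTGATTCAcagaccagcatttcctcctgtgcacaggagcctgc
Ltbp2, chr12:84846871-84846947, plus strand: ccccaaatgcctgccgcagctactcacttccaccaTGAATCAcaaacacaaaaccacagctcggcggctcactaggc
Msra, chr14:64368374-64368450, plus strand: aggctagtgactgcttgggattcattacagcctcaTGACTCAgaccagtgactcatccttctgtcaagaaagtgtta
Ralgps1, chr2:33359431-33359507, plus strand: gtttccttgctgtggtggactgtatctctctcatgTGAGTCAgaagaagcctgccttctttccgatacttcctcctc

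The site at Msra was 6 bases from the centre of its CRE, which held 4 matches. The CREs at Ltbp2, Msra and Ralgps1 were intronic in the gene of that name, and that at St3gal5 was intergenic. Over all 59128 CREs tested, 14.2% held the STAT6-type palindrome in the central 500 bases. The share was 38.4% of the 3510 shared gains defined next, 59.6% of the 500 largest, and 10.3% of the shared losses. It fell along the ranking, from 68.0% of the 100 largest gains to 26.6% of the gains ranked after 2000, against 12.9% of CREs with no call. TGANTCA was held by 25.3% of all CREs, 37.5% of the shared losses, 50.6% of the 500 largest losses and 21.7% of the shared gains. Away from promoters, over 1 kb from any start, the shares were 41.1% of gains against 15.4% of all CREs for the palindrome, and 38.8% of losses against 29.1% for TGANTCA. The palindrome with 3 bases between TTC and GAA was held by 20.9% of gains and 15% of all CREs. The PU.1-type GAGGAAG, searched on both strands, was held by 30.7% of gains, 35.1% of losses and 29.9% of all CREs. These are counts of letters in a window and show no binding.

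**Figure D1:**
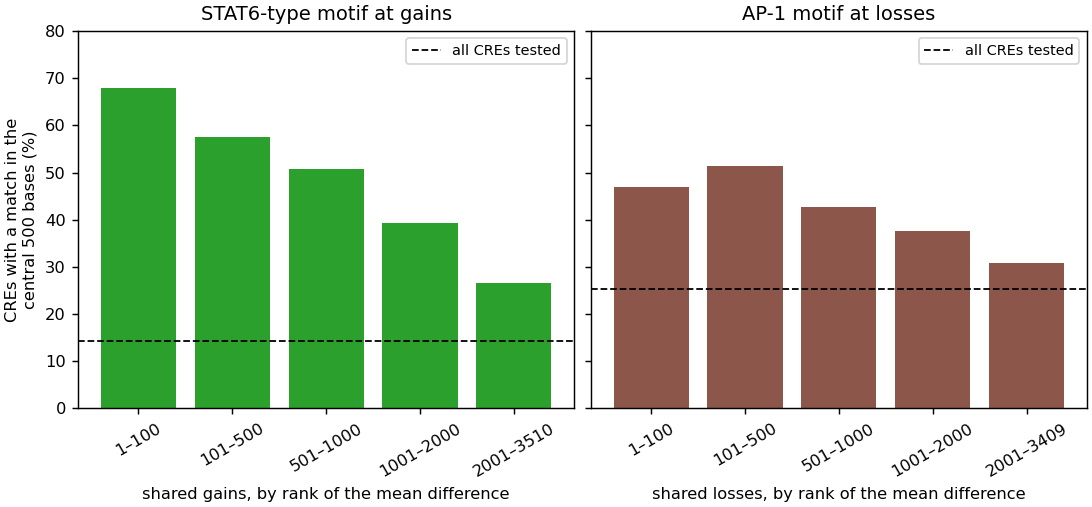
Share of CREs (%) with a match in their central 500 bases, by rank of the mean log2 difference, for the STAT6-type palindrome in shared gains (left) and TGANTCA in shared losses (right). The dashed line is the share among all CREs tested, 14.2% on the left and 25.3% on the right, and the left bars fall from 68.0% to 26.6% while the right bars lie between 30.9% and 51.5%.

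After IL-4, H3K27ac rose at 3510 CREs and fell at 3409 in nearly all CKIs. In these bulk samples, a change in the number of cells of a type and a change in the mark per cell cannot be told apart. A shared gain or loss was a CRE with a Benjamini-Hochberg adjusted p under 0.01 in limma, a mean difference over 0.5 on the log2 scale and the same sign in at least 50 of 55 CKIs. Shared gains were 5.94% and shared losses 5.77% of the 59128 CREs tested, or 11.7% together. All 55 CKIs moved in 1 direction at 1706 CREs (2.89%), of which 1016 were shared gains and 667 shared losses. The limma test alone, without the limits on size and sign, called 28863 CREs (48.8%), so the sign in each CKI and the size decided most of the selection. At the limit itself, 378 of the gains had risen in exactly 50 CKIs, and 358 CREs that met the other limits had risen in 49. Without Lapatinib and Momelotinib, whose medians over all CREs were the lowest and highest, there were 3223 gains and 3131 losses, an alternative added after seeing the data.

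The gains were larger than the losses and started from a lower level. The median mean difference was 1.06 over gains and -0.87 over losses, against 0.06 over all CREs tested. Gains over 1 numbered 1914 and gains over 2 numbered 302, while 1181 losses were under -1 and the largest loss was -2.03. The median normalized read count of the shared gains was 58.4 in UT and 141 after IL-4, and that of the shared losses was 203 in UT and 109 after IL-4, in CREs of median width 1683 and 1875 bases. When CREs were divided into 5 equal bins by their UT value, shared gains made up 3.51% of the lowest bin, 8.42% of the middle one and 4.08% of the highest. No shared loss lay in the lower 2 bins (UT values up to 40.1), and 18.4% of the highest bin were losses. On the log2(value + 5) scale a CRE with a low UT value can fall by little.

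**Figure D2:**
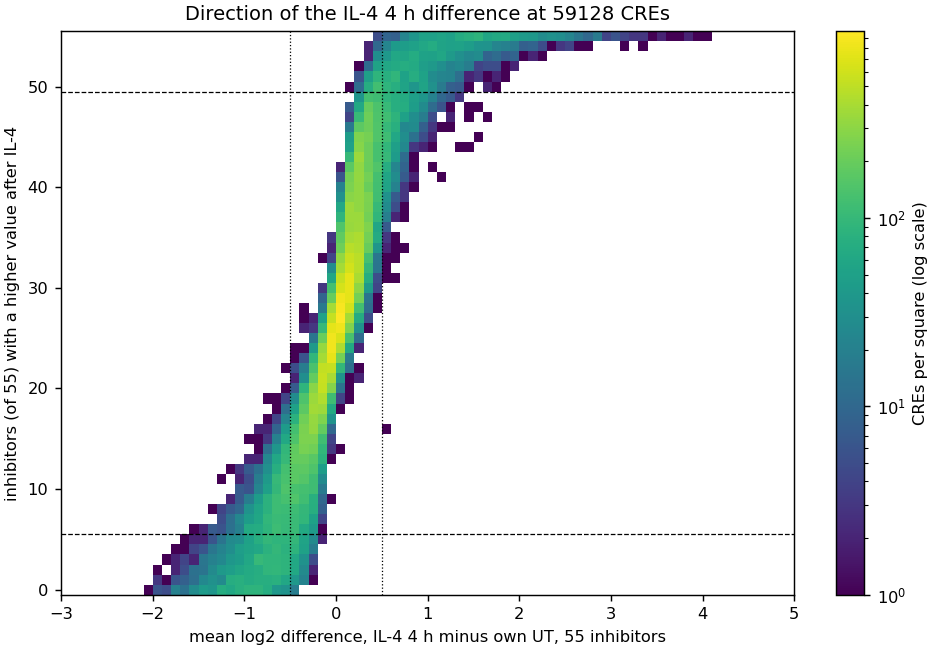
Each square counts CREs (colour, log scale) by the mean log2 difference between IL-4 4 h and own UT over 55 CKIs (x axis) and by the number of CKIs with a higher value after IL-4 (y axis). Dashed lines mark the limit of 50 of 55 CKIs in each direction and dotted lines the limit of 0.5 on the mean, so the 3510 shared gains lie in the upper right corner and the 3409 shared losses in the lower left.

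Both classes lay mainly away from promoters. CREs within 1 kb of a start were 19.3% of all CREs tested, 13.5% of gains (475) and 7.3% of losses (249). CREs over 50 kb from any start made up 23.7% of gains and 27% of losses, against 19.7% of all. The classes also formed runs of neighbours along the chromosomes. When called CREs at most 25 kb apart were joined, 100 groups held 5 or more gains (707 CREs in all) and 106 held 5 or more losses (686). These groups and the ones named from them were picked after their values were seen.

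The group with the most gains covered the locus of Egr2, a zinc finger factor of the alternative programme, together with Ado and Zfp365 on chromosome 10 from 67534582 to 67761482. Of its 35 tested CREs, 33 were shared gains, none was a loss, and the median difference was 1.41. At Clec16a and Socs1 (chromosome 16, 10639462 to 10746269), 13 of 13 CREs were shared gains with a median difference of 3.07. At Batf3, a partner of AP-1 factors, with its neighbours Nsl1 and Fam71a, 13 of 13 were gains with a median of 1.37. The locus of Cd274 and Pdcd1lg2, which encode the ligands of the inhibitory receptor PD-1, had 16 gains among 21 CREs. The cytokine signalling inhibitor Socs5 with Mcfd2, and the inhibitory antibody receptor Fcgr2b, had 8 gains of 8 each, and the locus of the growth factor Igf1 had 10 of 12.

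The largest groups of losses were smaller. At Ptafr, the receptor of platelet activating factor, with Eya3, 15 of 17 CREs were shared losses. Around Trib1, a pseudokinase that limits the factor C/EBPA, 12 of 16 fell. The paired receptors Pilra and Pilrb1 lay in a group of 11 losses among 13 CREs with a median difference of -1.69. The chemokine receptor pair Ccr3 and Ccr2 had 10 of 11, and the C-type lectins Clec4n, Clec4d and Clec4e had 8 of 10. Between Lrp1 and Stat6, the gene of the transcription factor that the IL-4 receptor activates, 10 of 10 CREs fell, with a median of -0.97.

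Genes of the JAK-STAT pathway and its feedback had 26 gains and 9 losses among the 158 CREs within 50 kb of their starts (16.5% and 5.70%), against 5.64% and 5.24% of all 47479 CREs at that distance. The gains lay at 10 genes (Bcl6, Cish, Irs2, Jak2, Pim1, Pim3, Ptpn1, Ptpn2, Socs1 and Socs2) and the losses at 3 (Il13ra1, Socs3 and Stat6). SOCS1 binds JAK kinases and blocks them. At the intronic CRE of Clec16a whose sequence opens the list above, the normalized read count was 7 at the lowest, 22 at the median and 77 at the highest in the UT cells of 55 CKIs, and 134, 409 and 573 after IL-4. The groups did not overlap, and the mean rose from 26.2 ± 15.2 to 399.8 ± 96.9 (SD, n = 55). The mean log2 difference was 3.82 (SE 0.106, limma, Benjamini-Hochberg adjusted p = 6.45e-50), higher in 55 of 55 CKIs, from 2.16 with Filgotinib to 5.42 with VX702.

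A CRE 3711 bases from the Socs1 start went from 26, 56 and 159 (lowest, median, highest) to 225, 550 and 820, without overlap, and its mean difference was 3.14 (SE 0.0915). CISH is another inhibitor of cytokine signalling that STAT factors induce. The CRE 10297 bases from its start went from 35, 64 and 155 to 213, 575 and 743, again without overlap, with a difference of 2.88 (SE 0.0793). At Pim3, a serine/threonine kinase gene, the mean went from 47.2 ± 16.9 to 331.1 ± 65.5, and at Jak2, one of the kinases of the pathway family, from 98.8 ± 28.2 to 348.7 ± 87.9 (SD, n = 55), and no IL-4 value of either reached down to the highest UT value. Irs2, an adaptor that the IL-4 receptor phosphorylates, rose by 1.88 (SE 0.080) at a CRE where the groups overlapped and 53 of 55 IL-4 values lay above every UT value.

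Of 44 genes that the list of IL-4 targets held, 41 had a CRE within 50 kb, and 31 had at least 1 shared gain. Among their 227 CREs, 87 were gains (38.3%) and 13 losses (5.73%), with a median difference of 0.47. Over all tested CREs within 50 kb of a start the shares were 5.64% and 5.24%, so the losses were near the background. Gains lay at Arg1 (arginase), Retnla, Chil4, Mrc1 (the mannose receptor), Ccl24 (an eosinophil chemokine), Mgl2, Clec10a, Egr2, Irf4 and Klf4 among others, and losses at Cd300lf, Cd36, Mmp12, Myc and Tgm2. The list was put together with results of these libraries known, so its count is not independent evidence of a direction. Pdcd1lg2 encodes a ligand of PD-1. At the CRE 63 bases from its start the UT values were 8, 23 and 56 (lowest, median, highest) and the IL-4 values 117, 230 and 337, without overlap, with a mean difference of 3.01 (SE 0.0978). Irf4, needed for alternative activation, went from 60.4 ± 21.8 to 439.5 ± 83.6 at a CRE 34398 bases from its start. At Klf4, another factor of the programme, the mean went from 36.1 ± 18.7 to 240.5 ± 50.3. Il1rl2, the receptor of interleukin 36, went from 68.9 ± 19.4 to 274.4 ± 45.6. At these 3 CREs as well, the lowest IL-4 value was above the highest UT value.

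The secreted ribonuclease genes of chromosome 14 (the Ang, Ear and Rnase2 families, some of them known from eosinophils) held many of the largest gains. In the group of Gm8113, Ang5 and Ang6 all 10 tested CREs were shared gains with a median difference of 3.46, and in that of Rnase2b, Ang2, Ear14 and Rnase2a all 8 were, with a median of 3.02. At Ang2, where repeated sequence was scarce (3.28% of the 51-base words of the CRE occurred elsewhere in the genome), UT values were 16, 46 and 106 and IL-4 values 276, 571 and 835, and the difference was 3.43 (SE 0.0809), higher in 55 of 55 CKIs. The CRE of Ang5 with the largest mean difference of all, 4.08 (SE 0.111), had 65.9% repeated words, and those of Gm8113 and Rnase2b had 43.7% and 31.6%, so reads of near-identical copies could not be told apart there. At Ang5 the UT values reached from 0 to 87 and the IL-4 values from 59 to 778, and 54 of 55 IL-4 values lay above every UT value.

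Other leading gains lay in or near single genes. At St8sia1, a sialyltransferase, the values went from 4, 27 and 127 to 168, 403 and 543, without overlap, and the difference was 3.51 (SE 0.0939; limma, Benjamini-Hochberg adjusted p = 1.02e-50). Aifm3 went from 23.5 ± 10.0 to 232.5 ± 55.1. Slc1a2, a glutamate transporter, and Rmi2, next to Socs1, overlapped slightly between groups: 52 of 55 IL-4 values were above every UT value at both. At Rmi2 and at Rnase2b 1 CKI, Afatinib, was lower after IL-4 (-0.19 and -0.54), while the other 54 were higher. In the Afatinib libraries 1 read was worth an estimated 10.6 in UT and 11.5 after IL-4. The mean UT values over CKIs were 18.6 at Rmi2 and 23.9 at Rnase2b, so both exceptions rest on a few reads.

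**Figure D3:**
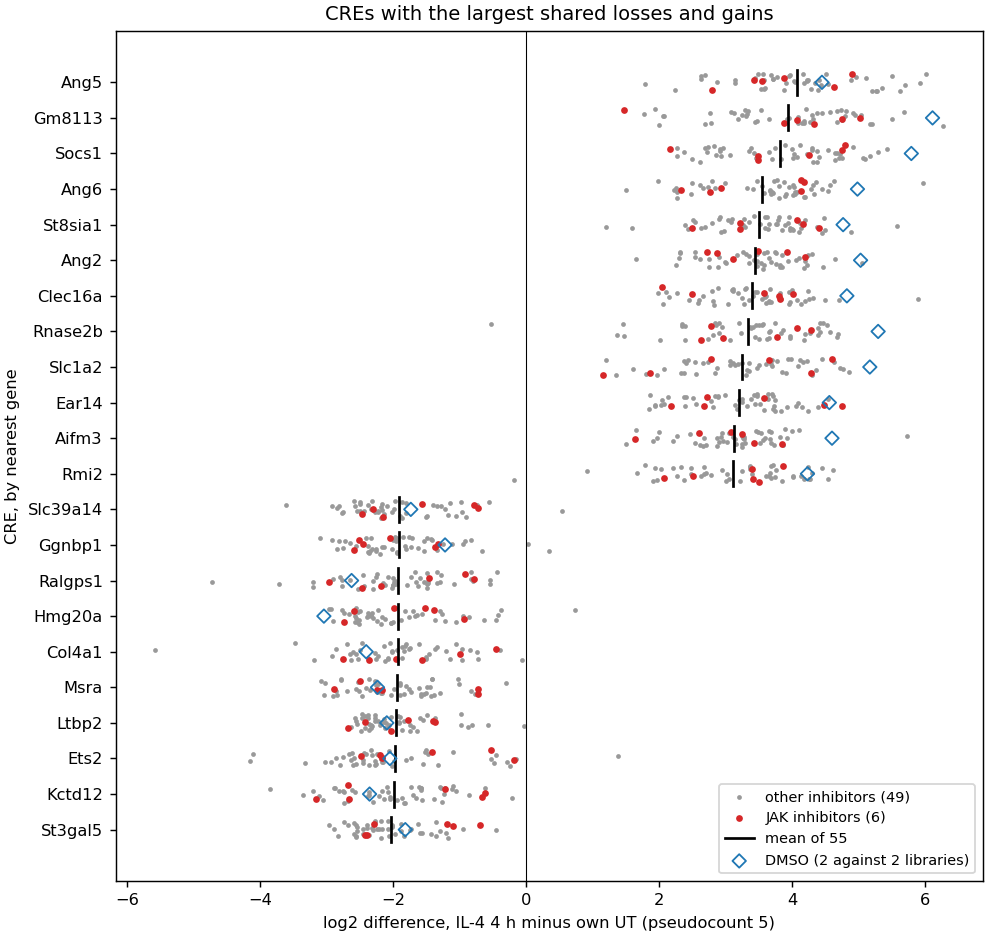
Log2 difference between IL-4 4 h and own UT (x axis, pseudocount 5) at the 12 shared gains and 10 shared losses with the largest mean, 1 row per CRE. Red points are 6 JAK inhibitors, grey points the other 49 CKIs, the black bar the mean of 55 and the blue diamond the DMSO libraries (2 against 2). The points of Socs1 lie between 2.16 and 5.42 and those of St3gal5 between -2.97 and -0.45, all on 1 side of 0.

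The largest loss was at a CRE 47106 bases from St3gal5, the gene of a ganglioside sialyltransferase. Its UT values were 224, 415.5 and 551 (lowest, median, highest) and its IL-4 values 26, 92 and 238. Of 55 IL-4 values, 54 were below every UT value. The mean difference was -2.03 (SE 0.0684; limma, Benjamini-Hochberg adjusted p = 5.39e-44), lower in 55 of 55 CKIs. At Ltbp2, which encodes a protein that binds latent TGF-beta complexes, the mean went from 764.6 ± 90.5 to 206.3 ± 94.9, and 53 of 55 IL-4 values were below every UT value. Kctd12, Msra (a methionine sulfoxide reductase), Ralgps1 and Col4a1 (a collagen of basement membranes) were also lower in 55 of 55 CKIs. Ets2, a transcription factor, was lower in 54 and had 1 exception, Omipalisib at 1.38. At Ets2 the UT values already spread from 14 to 403 and the IL-4 values from 8 to 212, so the groups overlapped widely and the loss rests on the comparison within each CKI. Slc39a14, a zinc and iron importer, was lower in 54 at a CRE on its own start, from 299.8 ± 88.9 to 77.2 ± 34.5.

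Immediate early and AP-1 genes fell more often than they rose. Of 164 CREs near them, 29 were shared losses (17.7%) and 11 gains (6.71%), with a median difference of -0.25. Over all tested CREs within 50 kb of a start, 5.24% were losses and 5.64% gains, so the gains were near the background. The share of losses rose with the UT value over all CREs, and no list was matched for that value. Losses lay at 11 genes: Dusp1, Dusp6, Egr1, Egr3, Fos, Fosb, Fosl2, Jun, Klf6, Nr4a1 and Spry2. At Dusp1, a phosphatase that inactivates MAP kinases, UT values were 388, 654 and 906 and IL-4 values 149, 218 and 485. Of 55 IL-4 values, 52 were below every UT value, and the difference was -1.46 (SE 0.0512), lower in 55 of 55. Fos, a subunit of AP-1, went from 226.1 ± 52.7 to 82.0 ± 36.0 at a CRE 45204 bases from its start. Dusp6, a phosphatase of ERK, went from 161.2 ± 42.3 to 58.5 ± 31.7. The gains included Dusp4, another phosphatase of MAP kinases, which went from 113.3 ± 33.2 to 460.2 ± 101.4 without overlap, and CREs of Klf2, Atf3, Dusp5, Ier3 and Egr1.

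Inflammatory genes, which LPS turns on, had 23 shared losses (12.8%) and 4 gains (2.22%) among 180 CREs. The shares over all tested CREs within 50 kb of a start were 5.24% and 5.64%. Losses lay at 14 genes, among them Tnf, Cxcl1, Cxcl2, Ccl2, Ccl3, Nfkbia, Nos2, Il12b, Cd14 and Tlr2. The chemokine gene Cxcl2 had UT values of 122, 270.5 and 448 and IL-4 values of 23, 82 and 248 at a CRE 4663 bases from its start, and 39 of 55 IL-4 values were below every UT value. At Acod1, which makes itaconate, the mean went from 198.4 ± 42.3 to 69.3 ± 34.5, with 27.9% of repeated words in the CRE. Fpr1, a receptor of bacterial formyl peptides, was lower in 50 of 55 CKIs and higher by up to 1.04 (Omipalisib) in the other 5. The 4 gains lay at Il1b, Il6 and Tlr4. At Il1b the mean went from 33.3 ± 19.2 to 87.7 ± 25.6 and at Il6 from 33.3 ± 16 to 90.5 ± 30.8, both with overlap between groups.

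Among 128 CREs near PPAR-gamma, LXR and lipid genes, 8 were gains (6.25%) and 15 losses (11.7%). Over all tested CREs within 50 kb of a start, 5.64% were gains and 5.24% losses, so the share of gains was near the background. The sterol transporter Abcg1 rose from 61.5 ± 17.3 to 277.6 ± 60.4 without overlap (difference 2.11, SE 0.0674), and Lpl, Scd2 and the coactivator Ppargc1b had the other gains. The transporter Abca1 went from 145.1 ± 28.4 to 51.8 ± 16.5, the scavenger receptor Cd36 from 152.0 ± 45.1 to 58.4 ± 27.7, and the fatty acid binding protein Fabp5 from 113.1 ± 43.9 to 35.3 ± 24.2. Nr1h3, Plin2, Pparg and Rxra had losses as well. Abca1 and Cd36 were lower in 55 of 55 CKIs and Fabp5 in 52.

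MHC class II and costimulatory genes had 9 gains and no loss among 54 CREs (16.7%). Over all tested CREs within 50 kb of a start, 5.64% were gains and 5.24% losses. The gains lay at Cd40, Cd74, Cd86, Ciita, H2-DMa and H2-DMb2. At Cd40 the UT values were 31, 67 and 107 and the IL-4 values 118, 200 and 281, without overlap (difference 1.53, SE 0.0645). The interferon-stimulated genes were near the background, with 6 gains (6.12%) and 3 losses (3.06%) among 98 CREs, and so were cell cycle genes, with 4 gains (5.97%) and 2 losses (2.99%) among 67. Of the latter, the CDK inhibitor Cdkn1a went from 153.0 ± 23.5 to 372.7 ± 92.0 at its start, higher in 53 CKIs and lower by 0.84 with MK2206, and the cyclin Ccnd1 went from 422.6 ± 144.4 to 215.5 ± 68.5.

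Promoter CREs of macrophage lineage genes had UT values, averaged over CKIs, above those of most promoters. The median of 15 such CREs was 469 (229 to 1730 between CREs), against 154 over all promoter CREs. The genes of that list had 9 gains (7.03%) and 16 losses (12.5%) among 128 CREs. Of all tested CREs within 50 kb of a start, 5.64% were gains and 5.24% losses. The gains were thus near the background. In the highest of 5 bins by UT value 18.4% of CREs were losses, and the part of the UT level in these counts was not tested. Itgam, the CD11b integrin, went from 424.7 ± 57.2 to 217.3 ± 65.4 near its start, and the fractalkine receptor Cx3cr1 from 130.8 ± 26.7 to 53.1 ± 21.8, while CREs of Csf1r, Runx1, Cebpa and Lyz2 included gains. Promoter CREs of genes of other cells a marrow culture could hold had median UT values between 17.4 and 26.7 for B cells, neutrophils, mast cells and eosinophils, fibroblasts and dendritic cells, and 122 for the single T cell promoter CRE, that of Cd3d. The medians rest on few promoter CREs: 3 for B cells, 2 for neutrophils, 1 for mast cells and eosinophils, 3 for fibroblasts and 1 for dendritic cells. Single promoter CREs of these lists, that of Cd3d aside, lay between 10.9 and 84.5. Of 8 T cell genes 3 had any CRE within 50 kb, and of 8 fibroblast genes 4 did. Of 3 CREs of T cell markers and 8 of fibroblast markers, none was called. B cell markers had 2 losses among 11 CREs, both at Ms4a1, neutrophil markers 2 gains among 12 (Elane and Ltf), mast cell and eosinophil markers 1 gain (Ms4a2) and 1 loss (Siglecf) among 15, and dendritic cell markers 1 loss (Xcr1) among 24.

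The median over the shared gains stood near its 4 h value at the first time point, whereas that over the losses did not, and leading gains such as Socs1, Ang5 and Gm8113 were still well under their 4 h values. Over the shared gains the median difference from own UT was 0.94 at 0.5 h, 1.10 at 1 h, 1.12 at 2 h (53 CKIs) and 1.06 at 4 h. Over the shared losses it was -0.35, -0.63, -0.92 and -0.87. At 0.5 h, 78.6% of the gains already had a mean difference over 0.5 (11.9% of all CREs tested did), while 30.2% of the losses were under -0.5 (3.85% of all). The same UT libraries enter every time point and the classes were chosen at 4 h, so the time points are not independent. The Socs1 CRE went from 26.2 ± 15.2 in UT to 216.5 ± 49.4 at 0.5 h, 336.9 ± 68.9 at 1 h, 434.9 ± 65.8 at 2 h and 399.8 ± 96.9 at 4 h. The leading CRE of Ang5 was at 162.6 ± 58.0 at 0.5 h and at 403.9 ± 154.3 at 4 h, and that of Gm8113 at 119.8 ± 46.8 and 374.8 ± 116.8. Jak2 was at 361.4 ± 79.4 by 0.5 h and at 348.7 ± 87.9 at 4 h, while Cish was at 244.8 ± 50.2 at 0.5 h, 482.4 ± 94.7 at 2 h and 542.0 ± 131.2 at 4 h. Dusp1 went from 644.8 ± 103.1 to 434.4 ± 69.8 at 0.5 h and 212.1 ± 30.9 at 2 h. Cd36 was above its UT mean at 0.5 h (191.8 ± 52.3 against 152.0 ± 45.1) and below it from 1 h on.

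**Figure D4:**
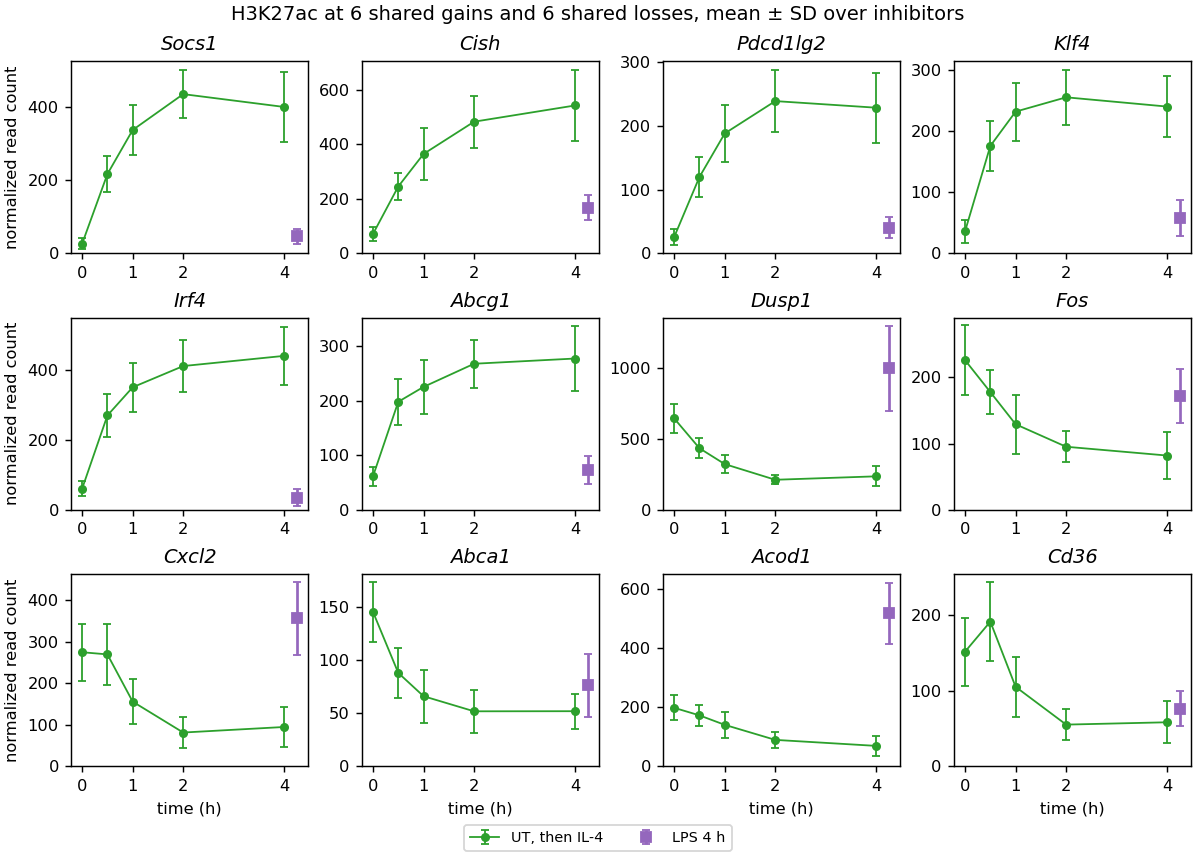
Normalized read count (mean ± SD over CKIs, y axis from 0) against time (h) at 6 shared gains and 6 shared losses, from UT through 4 times of IL-4 from 0.5 h on (green), with LPS at 4 h as a purple square drawn slightly to the right of 4 h. n is 55 except 53 at 2 h of IL-4 and 52 for LPS. The LPS mean of Dusp1 (1000.2) and Acod1 (519.2) lies above UT where IL-4 lies below it.

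To ask which changes went with IL-4 and not with any stimulus, IL-4 was set against LPS at 4 h within the 52 CKIs that had both. Over all 59169 CREs tested, 13318 (22.5%) were higher and 13000 (22%) lower after IL-4 than after LPS (limma, adjusted p under 0.01 and mean difference over 0.5). Of the 3510 shared gains, 2630 (74.9%) were higher after IL-4 and 223 (6.35%) lower, with a median difference of 1.06. Of the 3409 shared losses, 678 (19.9%) were higher and 1242 (36.4%) lower, with a median of -0.19. The IL-4 libraries are those that chose the classes, so these counts are not independent of the choice. Against own UT, which both stimuli share, the median after LPS was 0.07 over the gains and -0.75 over the losses: the losses as a class also lay below UT after LPS.

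Single loci differed in how IL-4 compared with LPS. Irf4 was at 60.4 ± 21.8 in UT, 439.5 ± 83.6 after IL-4 and 34.5 ± 23.5 after LPS, and the difference between stimuli was 3.65 (SE 0.103), higher after IL-4 in 52 of 52 CKIs. The Socs1 CRE in Clec16a was at 46.9 ± 20.3 after LPS, for a difference of 3.02 (SE 0.0968), whereas that nearer to the Socs1 start differed by 0.71 (SE 0.0544) and Jak2 by 0.17 (SE 0.0501), and the mean of Jak2 was 302.2 ± 67.9 after LPS, above UT as well. Among the losses, Dusp1 (1000.2 ± 299.8 after LPS), Acod1 (519.2 ± 103.2) and Fpr1 (674.0 ± 165.5) were higher after LPS than after IL-4 in 52 of 52 CKIs. St3gal5 was lower than UT after both (102.9 ± 44.1 with IL-4, 191.6 ± 34.5 with LPS). Cd86, a costimulatory ligand, and Irf7, a factor of the interferon response, were shared gains with lower values after IL-4 than after LPS (difference -1.13, SE 0.0661, and -0.93, SE 0.0609).

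The DMSO libraries, which the choice of CREs did not use, moved the same way. With 2 IL-4 and 2 UT libraries, 5496 of 50587 CREs tested (10.9%) were higher and 5094 (10.1%) lower at an adjusted p under 0.01 and a difference over 0.5 in limma. Of 3501 shared gains tested there, 3121 (89.1%) were called higher, none lower, and 3500 had a difference above 0. Of 3409 shared losses, 2763 (81.1%) were called lower, none higher, and 3401 were below 0. The median differences were 1.57 over the gains and -1.0 over the losses, against 1.06 and -0.87 in the CKIs. Read from the other side, 56.8% of the CREs higher in DMSO were shared gains and 54.2% of those lower were shared losses. Across 50568 CREs the DMSO difference and the mean of the CKIs had r = 0.893, where CREs are not independent and all libraries came from 1 normalization. Without IL-4 replicate 1 the DMSO losses were 3383 and without UT replicate 1 they were 3096. The 2 DMSO values at the Socs1 CRE were 5 and 2 in UT and 468 and 448 after IL-4. At Dusp1 they were 558 and 590, then 147 and 145. The contrast of the DMSO libraries was 35 to 133, against 4.61 to 66.0 in the CKI libraries, and its part in the larger DMSO differences was not tested.

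Pairs of UT libraries of 1 CKI gave the background of the same measure. The CKIs with such a pair included all 8 of run 5 and none of runs 2 and 4, with the runs as defined below. The pairs thus do not stand for all CKIs. In 15 CKIs, the library with the suffix b against the one without called 3 gains (0.00509%) and 5 losses (0.00848%) among 58943 CREs, with the same limits and the same sign in 14 of 15. None of the 3510 shared gains or 3409 shared losses was among them. The median SD of the difference over CKIs was 0.518 in these pairs and 0.66 for IL-4 against UT over all CREs tested, and 0.55 for the latter in the same 15 CKIs.

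Every CKI showed both parts of the response. The median over the 3510 gains was above 0 in 55 of 55 CKIs, from 0.65 with Filgotinib to 1.46 with the analogue of ONO4059. The median over the 3409 losses was below 0 in 55 of 55, from -1.22 with Refametinib to -0.47 with X396. In the CKI with the fewest, 86.8% of gains were still above 0 and 77.7% of losses below 0. Since a CRE had to move in 50 CKIs to be chosen, these shares are set in part by the choice. The gap between both medians, which a shift of all CREs in 1 CKI does not alter, ran from 1.22 (Filgotinib) and 1.24 (Bafetinib) to 2.51 (GSK2110183) and 2.59 (Refametinib), with a median of 2.03. The shift itself, the median over all CREs, ran from -0.57 (Lapatinib) to 0.78 (Momelotinib).

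Families of CKIs, grouped by their clinical targets, overlapped in that gap. Its median was 1.97 in 6 JAK inhibitors (1.22 to 2.48), 1.92 in 9 inhibitors of PI3K, mTOR or AKT (1.49 to 2.51), 2.09 in 6 of the ERBB receptors (1.36 to 2.24), 2.03 in 6 of the RAF, MEK and ERK chain (1.84 to 2.59), 1.64 in 3 of p38 (1.31 to 2.35) and 2.06 in 25 others (1.24 to 2.40). The ranges of all families overlapped.

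The gap moved with the run in which the libraries stood. The columns of the table fell into 6 stretches that share no compound, taken here as runs, with 9, 8, 10, 10, 8 and 10 of the CKIs, since the labels give no batch. The median gap by run was 1.65, 2.10, 2.02, 2.37, 2.18 and 1.67, and the median contrast of the IL-4 libraries was 10.5, 24.4, 21.4, 57.5, 49.2 and 13.8, so the runs stood in the same order on both measures. The part of contrast in the gap was not tested, and compounds and runs cannot be told apart. An F-test over runs in limma called 9522 of 59128 CREs (16.1%) at an adjusted p under 0.05. These included 1125 shared gains (32.1%), 1251 shared losses (36.7%) and 225 of 980 CREs that varied in direction (23.0%). Under quantile normalization the count over all CREs was 2058. At the Socs1 CRE the run means were 3.33, 3.33, 4.05, 4.38, 4.48 and 3.33, and at Ltbp2 -1.70, -1.96, -2.08, -2.10, -2.40 and -1.55. Within each run, between 84.4% and 97.8% of the shared gains had a mean over 0.5 and between 81.0% and 98.4% of the losses a mean under -0.5. The CREs were chosen for the same sign in at least 50 of these same CKIs, which largely fixes the direction within each run, so these shares are a description.

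**Figure D5:**
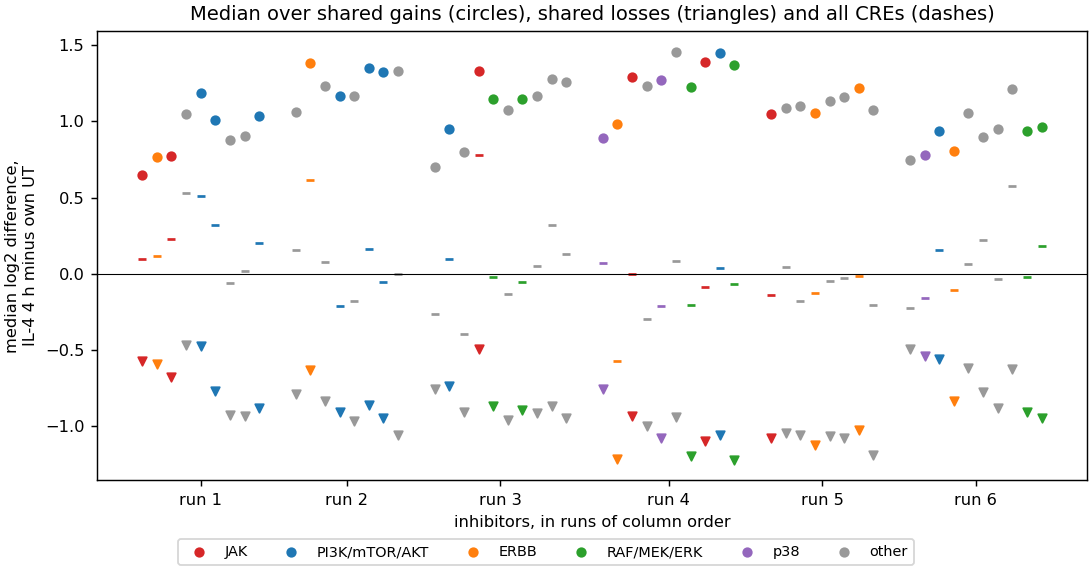
Median log2 difference between IL-4 4 h and own UT for each of 55 CKIs (y axis) over the shared gains (circles), shared losses (triangles) and all CREs tested (dashes), placed by run of column order and coloured by family. All circles lie between 0.65 and 1.46 and all triangles between -1.22 and -0.47, and circles and triangles lie closer together in runs 1 and 6.

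JAK inhibitors were compared with CKIs outside the families because the receptor of IL-4 signals through JAK kinases. The model held the run and 4 families (JAK, PI3K/mTOR/AKT, ERBB and RAF/MEK/ERK). Each coefficient was thus against the 25 others and 3 p38 inhibitors, given the run. The means of the other 49 CKIs below are a plain description and not the reference of the coefficients. For JAK, 0 of 59128 CREs (0%) passed an adjusted p of 0.05 in limma, and the smallest adjusted p was 0.431. At an unadjusted p under 0.05, 2507 CREs (4.24%) differed, 427 of them lower with JAK inhibitors. For comparison, the same count was 4593 (7.77%) for PI3K, mTOR and AKT, 2173 (3.68%) for ERBB and 1315 (2.22%) for RAF, MEK and ERK, with 0 adjusted calls in each. The median JAK coefficient was -0.02 over the shared gains, 0.10 over the losses and 0.12 over all CREs, with a median standard error of 0.3. At the Socs1 CRE the difference was 3.82 ± 1.00 with 6 JAK inhibitors (2.16 to 4.79) and 3.82 ± 0.89 with the other 49 (SD), and the coefficient was -0.10 (SE 0.301). At Cish it was 2.82 ± 0.52 against 2.89 ± 0.69, with a coefficient of -0.25 (SE 0.218). The size of these errors limits what 6 compounds at 1 concentration each can show, and a miss of the threshold does not show that the families act alike.

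The 6 CREs with the smallest p in that comparison lay at Ncoa3, Cd300ld3, Cdk6, Pum2, Zfp873 and Slfn5. At Ncoa3, a nuclear receptor coactivator gene, the difference was -0.42 ± 0.29 with JAK inhibitors and 0.00 ± 0.23 with the others (coefficient -0.56, SE 0.116, limma, Benjamini-Hochberg adjusted p = 0.431). The CRE of Cd300ld3 was a shared loss, by -0.29 ± 1.13 with JAK inhibitors and -1.24 ± 0.62 with the others, and 1 of the JAK inhibitors, Momelotinib, was at 1.84 (coefficient 1.27, SE 0.280, limma, adjusted p = 0.514). Momelotinib also had the lowest contrast after IL-4 of all 55, at 4.61.

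Shared gains and losses with the highest 5% of SDs over CKIs, those over 0.83, were taken as varying in size. That limit fixes their number, 346, in advance. Of these, 233 were gains and 113 losses. At Tbc1d4, a regulator of glucose transport, values went from 2, 16 and 68 to 8, 117 and 202, the difference averaged 2.24 with an SD of 1.21, and it reached from -1.66 (BGT226) to 4.23 (OSI930). A CRE of Ang5 1652 bases from its start was higher in 55 of 55 CKIs, by between 0.69 (Pimasertib) and 5.60 (Refametinib). At Rab18, a small GTPase, the difference averaged 1.85 with an SD of 1.13 and reached from -0.95 (Volasertib) to 4.85 (Mubritinib), with 51 CKIs higher and 4 lower. The other named ones, at Zfp951, Clec2i and Ear2, had between 59.4% and 80.5% repeated words. At Ear2 the mean difference was 1.09, 50 CKIs were higher and 5 lower, and the extremes were -3.51 (AZD8186) and 4.42 (XL413).

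Direction varied at 980 CREs (1.66%), where at least 10 CKIs were over 1 and at least 10 under -1. None was a shared gain or loss. The count was 220 under quantile normalization and 4534 with a pseudocount of 1, so it depends on the scaling and the pseudocount. Their median UT value was 20.8, against 53.9 over all CREs tested, and their median SD was 1.18 against 0.66. Over 10% of the 51-base words were repeated elsewhere in the genome at 324 of them (33.1%, against 7.31% of all CREs), and over 50% were at 172 (17.6%, against 0.873%). The 6 with the largest SD lay at Tcte3, Pdia4 (2 CREs), Gpm6a, Gm47283 and Rhou, and 89.9% to 98.4% of their words were repeated. At Tcte3 the UT values were 0, 178 and 303 and the IL-4 values 0, 175 and 378, the mean difference was -0.18 with an SD of 3.35, and CKIs lay between -5.54 (AZD2014) and 5.82 (ONO4059analogue). In the DMSO libraries the same CRE held 168 and 201 in UT and 199 and 175 after IL-4.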

How the data were processed

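H3K27ac ChIP-seq libraries of wild type BMDMs were grouped by the treatment label. The members and gene lists were chosen with earlier results of these data known. Per the study's methods, the authors trimmed single-end reads to 51 bases, mapped them to mm10 with ShortStack and counted reads around ATAC-seq summits; the submitters' notes also name Bowtie and SAMtools. The deposited values are a score: read counts per CRE that the authors scaled on invariant peaks across all libraries and rounded to whole numbers. They are not raw counts, so no count model was run, and whole reads could be estimated in 85 of 125 libraries. Each value carries counting error on top of the spread between CKIs, and the shallowest estimated library held 688117 reads. All mapped columns of the table had a sample.

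Values were taken as log2(value + 5), a scale that understates changes of low CREs, and CREs with a mean of at least 10 entered the limma fits (version 3.58.1, R 4.3.3, eBayes with a mean trend, Benjamini-Hochberg over all CREs tested, two-sided). The main fit was the intercept of the difference within each CKI. DMSO was a contrast in a fit of all 18 DMSO libraries. LPS was compared within 52 CKIs. Families entered 1 model with the run, and runs an F-test. The fits were tested on simulated data. Alternatives were other pseudocounts, filters, limits, quantile normalization, centring, leaving out runs, JAK inhibitors or replicates, and dropping the pairing in the limma fit. Nearest genes came from GENCODE vM21 and bases from the RefSeq copy of GRCm38, the assembly of mm10, and 267 of 270 list genes were in the annotation.

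The CREs named were the 12 largest shared gains and 10 largest shared losses (1 per gene), the 6 with the largest SD among CREs varying in direction and among gains varying in size, up to 5 genes per list by the largest difference, the Il1rl2 locus that the study assayed, and the 6 smallest p of the JAK comparison. Other names come from groups of neighbouring CREs and from list counts and were picked after their values were seen. One group of neighbouring CREs is not reported here.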

Additional observations from a re-analysis of the deposited data

Results flagged for a closer look

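Within the runs, 3 CKIs stood apart from the others of their run, among 40 groups of 4 to 10 values checked with Dixon's limit, where chance alone flags about 1 in 20. Mubritinib in run 2 (8 CKIs) had a median over all CREs of 0.61, and the next value was 0.16. Its contrast was 6.54 after IL-4 and 17.4 in UT. Momelotinib in run 3 (10 CKIs) had a median over the shared losses of -0.49, and the next value was -0.74. Its contrast was 4.61 after IL-4 and 20.1 in UT. PH797804 in run 4 (10 CKIs) had a gap of 1.64 between the median over gains and that over losses, and the next value was 2.20 (2.195 before rounding). Its contrast was 12 after IL-4 and 15 in UT, in a run with a median of 57.5 after IL-4. The part of contrast in these values was not tested.

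The difference between IL-4 and own UT itself varied between the 6 runs at 9522 CREs, 1125 of them shared gains and 1251 shared losses (F-test in limma, adjusted p under 0.05). Of 111 named CREs 61 were among them, including 33 of 48 named gains and 21 of 28 named losses.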

How the results depend on the processing

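No CRE called a shared gain or loss took the opposite call under any alternative. The 3510 gains and 3409 losses stayed within 1.5 times under other pseudocounts and filters, without the JAK inhibitors (3331 and 3358), under quantile normalization (3114 and 4421) and with each CKI's differences centred on their median (3017 and 4310). Leaving out 1 run at a time gave 3179 to 3935 gains and 2915 to 4239 losses. Dropping the pairing of each IL-4 library with its own UT (no replicate block) in the limma fit gave 3499 and 3414. The limit on the same sign stayed on the paired differences there, so these counts cannot show what the pairing contributes. Counts moved with the limits: the same sign in 44 of 55 CKIs gave 5730 losses, all 55 gave 1016 and 667, and a mean difference over 1 gave 1914 and 1181. In DMSO, a difference over 1 gave 2904 losses, leaving out 1 library gave 3925 to 4279 gains and 3096 to 3998 losses (under the main 5094 by over 1.5 times without IL-4 replicate 1, 3383, or UT replicate 1, 3096; a lone library is assumed to vary like the others), and the replicate number as a block, which pairs the 2 DMSO libraries by number only, gave 5469 and 5057. CREs that differed between runs fell to 2058 from 9522 under quantile normalization. CREs varying in direction numbered 220 under quantile normalization, 4534 with a pseudocount of 1 and 5232 with 15 CKIs past 0.5 each way, against 980, so that class rests on its definition. The JAK comparison gave 0 calls in all its alternatives. For the 111 named CREs, 2011 of 2091 recomputed values kept their side of the limits, 64 lost the call and 16 gained it. None with a call in the main fit or the alternative changed sign, and sign changes without a call were not counted. Depth limits low CREs most: the median SD over CKIs was 0.99 in the lowest of 5 bins by UT value and 0.34 in the highest.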

Other observations

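The response held other groups of neighbouring CREs that belong to no list, picked after their values were seen. At Tcf7l2, a transcription factor of the WNT pathway, 11 of 11 were shared gains (median difference 1.20), and at Fyn, a SRC family kinase, 10 of 11 (median 0.94). The membrane-spanning genes Ms4a7 and Ms4a4a had 8 gains of 8 on chromosome 19 with a median of 1.19, whereas the CRE in their neighbour Ms4a1 fell from 531.2 ± 61.3 to 264.2 ± 63.6. Among the losses, Tprg had 11 of 12, Stab1 (a scavenger receptor) with Nisch 8 of 8, and Tgfbi, an extracellular matrix protein gene, 8 of 9, with a median of -1.0.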
